A study of Drosophila melanogaster with 8 samples.

Results

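Cytochrome P450 enzymes (P450s) were examined in the heads of starved and fed *Drosophila melanogaster* as a gene family, taken as every row of the gene table whose symbol begins with Cyp, a family number and a subfamily letter. This rule left out the cyclophilin gene Cyp1 and the P450 genes that carry a mutant name, such as dib or shd. It gave 86 of 17518 named genes, in 20 families: 22 in Cyp4, 26 in Cyp6, 7 in Cyp12 and 31 in the other families. Of these, 3 rows of the Cyp6 family are pseudogenes.

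Flies spent 1 day under starvation, and control flies spent 1 day on food. Both used heads of male w1118 flies, a white-eyed laboratory strain without a transgene, that were 1 to 3 d old. Each condition had 4 biological samples of 30 flies, so a value is a mean over pooled animals, and poly(A)+ RNA was sequenced. Levels are CPM, gene counts relative to library size after scaling by edgeR's TMM method, fold changes are log2 of starvation over food, and ± beside a level is an SD over the 4 samples.

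P450s are heme enzymes that insert oxygen into small molecules. Most sit in the endoplasmic reticulum and take electrons from NADPH-cytochrome P450 reductase, whereas those of the mitochondrial clan take them from a ferredoxin. Insect P450s fall into the CYP2, CYP3, CYP4 and mitochondrial clans. The CYP2 clan and the mitochondrial clan hold enzymes of ecdysteroid hormone metabolism, while Cyp6, Cyp9 and Cyp28 (CYP3 clan), Cyp4 (CYP4 clan) and Cyp12 (mitochondrial clan) hold many genes of insecticide and plant toxin metabolism. Fat body, oenocytes, gut and Malpighian tubules are their best known sites in flies, and a head holds fat body but neither midgut nor tubules.

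Library totals lay between 47936038 and 53168449 counts. Starvation replicate 3 stood apart, with 25.6% of its counts on its 10 top genes, where this share lay between 17.8% and 20.3% elsewhere. Transcripts of the mitochondrial genome took 21.9% of its counts, against 14.1% to 16.6% elsewhere. The neuron genes elav, nSyb, Syt1, brp and para all had their lowest value in it, with para at 269 CPM, against 541 to 637 CPM elsewhere. The labelled tissue was checked with marker lists. Photoreceptor markers summed to between 18500 and 21800 CPM under starvation and between 15600 and 17400 CPM on food, while 6 midgut markers together reached at most 2.36 CPM in any library. The 5 Malpighian tubule markers summed to between 20.2 and 24.9 CPM under starvation and between 17.7 and 19.3 CPM on food, most of it Irk3 (mean 14.6 CPM), while Uro averaged 0.0836 CPM under starvation and 0.0700 CPM on food.

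More P450 genes fell than rose under starvation, and many did not pass the test. Of the 79 members with at least 10 counts in at least 4 of the 8 libraries, 36 fell and 9 rose at an adjusted p under 0.05 (edgeR's quasi-likelihood test, Benjamini-Hochberg over all 12130 genes tested), and 34 did not pass. The share that fell was 45.6%, where 16.6% of all genes tested fell. The share that rose was 11.4%, near the 9.97% among all genes. The median log2 fold change over the members was -0.25, with quartiles of -0.88 and 0.11, beside a median of -0.01 over all genes. Without starvation replicate 3, 37 members fell and 10 rose.

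Large changes were nearly all decreases. With a change of at least 2-fold added to the threshold, 19 members fell, which was 24.1% of those tested against 5.34% of all genes, and 1 rose, which was 1.27% against 0.94%. In all 20 of these members the values of the conditions did not overlap. An exact two-sided permutation test of each gave p = 0.0286, the smallest p that 4 against 4 samples can give. The 20 were picked from these same values, so the lack of overlap and this p are no separate support. Over the 79 members, all starvation libraries lay below all food libraries in 33 (41.8%, where 18.5% of all genes did so) and above them in 9 (11.4%, against 12.6%). In heads as bulk samples, fewer cells of a type and less RNA per cell cannot be told apart.

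Markers of some cell types changed too, where 16.6% of all genes were lower and 9.97% higher. Fat body markers fell in 7 of 9 tested genes, and the summed level of the 10 listed genes lay between 1650 and 2340 CPM under starvation and between 7590 and 12200 CPM on food. Of these, Pepck1 had a log2 fold change of 0.02 and Lsp2, a storage protein, one of -8.03. Lsp2 averaged 3904 CPM on food and 14.9 CPM under starvation, and apolpp 3233 CPM on food and 463 CPM under starvation. Most of the fed sum was thus Lsp2 and apolpp. Oenocyte markers fell in 5 of 9 genes (sum 714 to 1140 CPM under starvation, 1010 to 1210 CPM on food), glial markers in 5 of 5 (1230 to 1500 CPM under starvation, 2070 to 2330 CPM on food) and hemocyte markers in 5 of 5 (110 to 178 CPM under starvation, 230 to 366 CPM on food). The 5 oenocyte markers that fell averaged at most 5.81 CPM on food, whereas Desat1 (1008 CPM on food) and spidey (106 CPM on food) did not pass the test. Photoreceptor markers went the other way, with 3 of 6 higher (trp, trpl and ninaC, median log2 fold change of the list 0.27), and the 5 neuron and 5 muscle markers did not pass the test. The part of these cell types in the P450 changes was not tested.

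**Figure D1:**
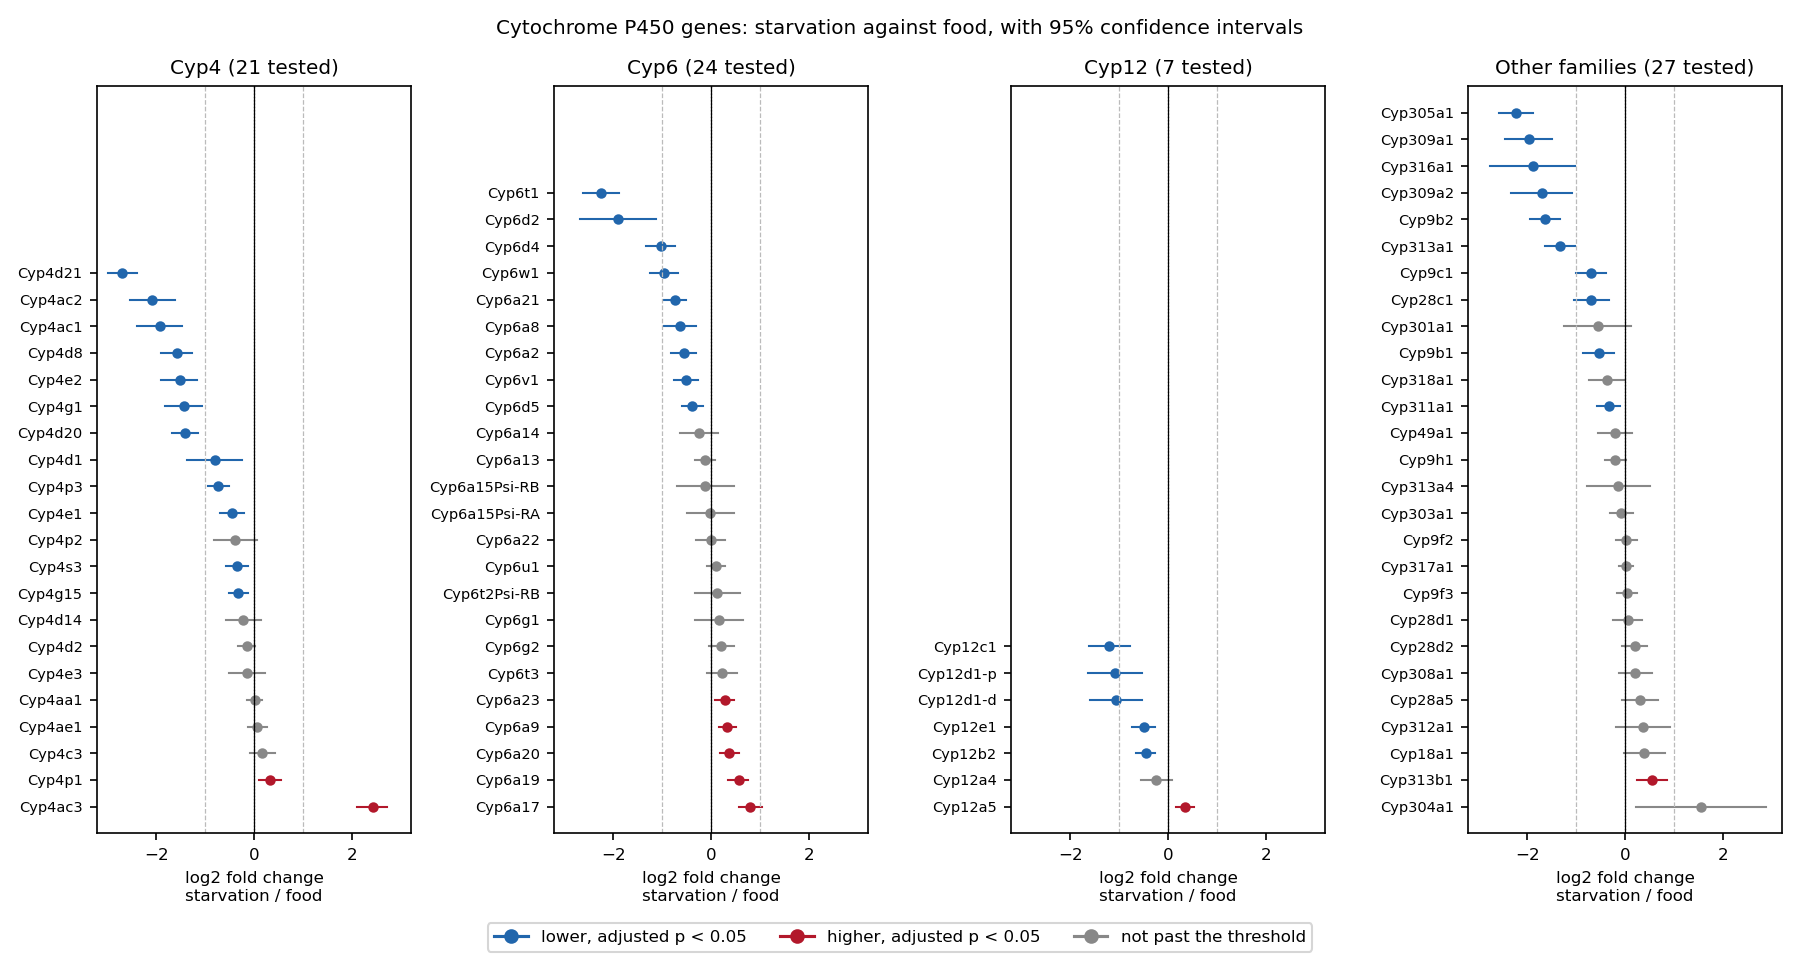
Log2 fold change (horizontal axis, starvation over food) of the 79 tested members, one per row, in the Cyp4, Cyp6, Cyp12 and other families, with 95% confidence intervals. Solid and dotted vertical lines mark 0 and the median of all genes (-0.01), and dashed lines mark 2-fold. Points lie mainly left of 0, and Cyp4ac3 at 2.42 is the only called member to the right of the 2-fold line.

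The summed level of the family showed the same direction. All members together gave 2196, 2554, 2595 and 2031 CPM under starvation, against 3013, 3088, 3264 and 2682 CPM on food. The means were 2344 ± 275 CPM under starvation and 3012 ± 244 CPM on food (n = 4 each), and no starved library reached the lowest fed one. Cyp4 transcripts summed to 410 ± 40.6 CPM under starvation and 627 ± 30.3 CPM on food. For Cyp6 the sums were 895 ± 102 CPM under starvation and 968 ± 90.3 CPM on food, closer than their spread. Cyp12 summed to 194 ± 34.2 CPM under starvation and 273 ± 37.7 CPM on food, and the remaining families to 845 ± 100 CPM under starvation and 1143 ± 97.2 CPM on food.

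**Figure D2:**
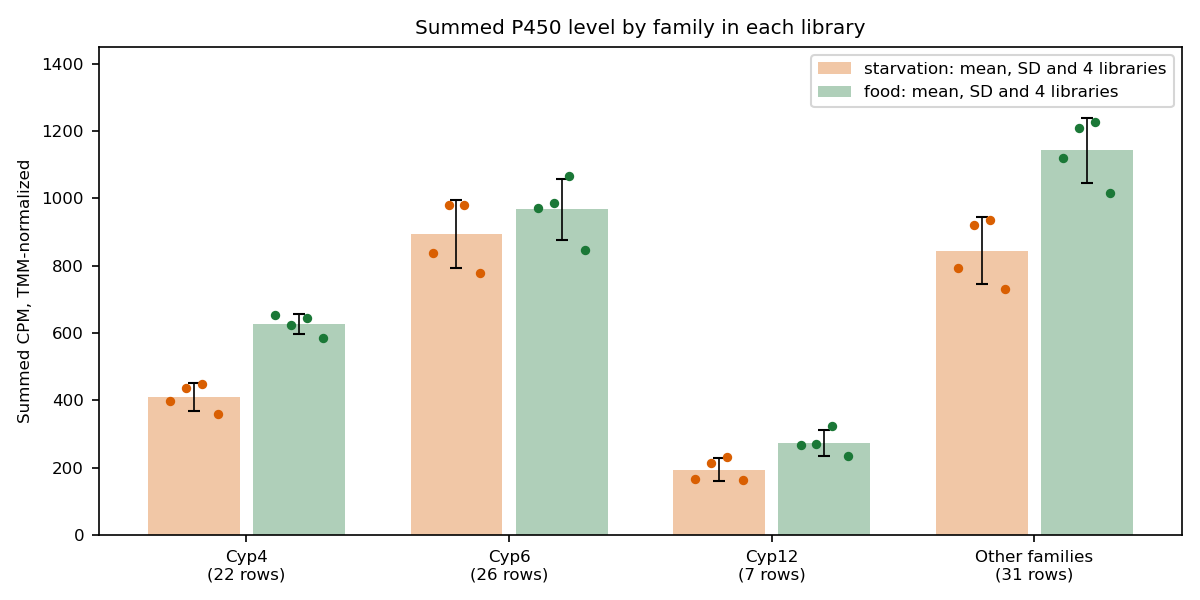
Summed CPM (vertical axis) of the Cyp4, Cyp6, Cyp12 and other families in starvation (left bar of each pair) and food (right bar); bars are means, error bars are SD and points are the 4 libraries. The Cyp4 sums do not overlap between conditions, whereas the Cyp6 sums (895 ± 102 CPM under starvation and 968 ± 90.3 CPM on food) do.

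By family, 12 of 21 Cyp4 members fell and 2 rose, with a median log2 fold change of -0.38. Among 24 Cyp6 members, 9 fell and 5 rose, with a median of -0.07, which was 0.05 under upper-quartile normalization. Of the 7 Cyp12 members, 5 fell and 1 rose (median -0.50), and of 27 members in the remaining families, 10 fell and 1 rose (median -0.20). Sorted by clan, 15 of 28 CYP4 clan members fell and 3 rose, and 15 of 38 CYP3 clan members fell and 5 rose. The mitochondrial clan had 5 of 9 lower and 1 higher, and the CYP2 clan 1 of 4 lower. Among all genes, 16.6% were lower and 9.97% higher, and a count such as 1 of 4 cannot be read against these shares. These counts describe the families; the difference between families was not tested, since genes are not replicates.

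Decreases were found among members of low and of high level. Among the 39 members with the lower mean levels, between 0.231 and 19.8 CPM, 13 fell and 2 rose. Among the 40 with the higher levels, between 19.9 and 201 CPM, 23 fell and 7 rose. Over all genes of any level, 16.6% fell and 9.97% rose. The shares among genes of like level were not computed, so the 39 and the 40 are not compared. All but 2 of the tested members had at least 10 counts in all 8 libraries, the exceptions being Cyp304a1 and Cyp316a1. The 7 members that were not tested were Cyp310a1, Cyp313a2, Cyp313a3, Cyp313a5, Cyp4ad1, Cyp6a16 and Cyp6a18, which had at most 22 counts in any library.

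Per kilobase of exon, so that genes can be compared with each other, Cyp6d5 had the highest mean over all libraries, with 104 CPM per kb under starvation and 136 CPM per kb on food. Cyp9f2 followed with 115 CPM per kb under starvation and 113 CPM per kb on food. Cyp28d1, which has been linked to nicotine resistance, had 116 CPM per kb under starvation and 112 CPM per kb on food. These levels place both among the highest members in either condition. Cyp313a1 had 57.1 CPM per kb under starvation and 143 CPM per kb on food, so that it was the highest member of fed heads, whereas Cyp28d1 and Cyp9f2 were the highest of starved heads. The next were Cyp6a2, Cyp6a17, Cyp6g1, Cyp28a5, Cyp9b2 and Cyp12a4, which averaged between 86.8 and 35.1 CPM per kb over all libraries. Among these 10, Cyp313a1, Cyp9b2, Cyp6a2 and Cyp6d5 fell, Cyp6a17 rose, and Cyp9f2, Cyp28d1, Cyp6g1, Cyp28a5 and Cyp12a4 did not pass the test.

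The Cyp4 family contained the largest decrease and the largest increase. Cyp4d21, also known as sex-specific enzyme 1, is expressed in the fat body of the male head under the sex-determination hierarchy and takes part in courtship. Cyp4d21 had 11.9, 13.5, 9.34 and 8.29 CPM under starvation, against 70.4, 71.1, 69.9 and 65.9 CPM on food. This gave a log2 fold change of -2.69 ± 0.14 (SE), with an adjusted p of 9.3e-07. The starved samples were 6.44-fold lower, and even the highest of them was far below the lowest fed sample. Cyp4d21 lies on 2L from 7605600 to 7607701. Fat body markers fell in 7 of 9 tested genes, and the part of fat body in this change was not tested.

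Cyp4g1 encodes the oxidative decarbonylase of oenocytes that makes cuticular hydrocarbons, the waterproof lipids of the cuticle. Cyp4g1 had 24.9, 37.5, 41.8 and 25.8 CPM under starvation, against 95.2, 74.1, 85.3 and 96.8 CPM on food. For Cyp4g1 the log2 fold change was -1.43 with an SE of 0.17 (adjusted p = 0.00011). Its conditions were well apart, and starvation replicates 1 and 4 were the lowest samples. Cyp4g1 lies on X from 467057 to 469335, inside the span of CG32816, whose log2 fold change was -0.05 (adjusted p = 0.83). Cyp4g15, its paralogue of the nervous system, had a log2 fold change of -0.32 (adjusted p = 0.022) and overlapping samples. Oenocyte markers fell in 5 of 9 genes, each with a low mean level (at most 5.81 CPM on food). The abundant markers spidey (log2 fold change 0.04) and Desat1 (-0.27) did not pass the test, nor did FarO (-0.19) and CG17821 (-0.27). The part of oenocytes in the change of Cyp4g1 was not tested.

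Further Cyp4 genes fell at least 2-fold. Cyp4e2 had 25.9, 25.8, 22.3 and 15.2 CPM under starvation, against 67.8, 67.6, 69.9 and 51.4 CPM on food. The fitted change of Cyp4e2 was -1.52 in log2 units (SE 0.16, adjusted p = 5.9e-05). Food replicate 4 lay apart from the other fed samples. The log2 fold change without it was -1.62. Cyp4e2 lies on 2R from 8444560 to 8447164. Cyp4d8 had 4.97, 6.74, 5.76 and 4.71 CPM under starvation, against 18.1, 15.5, 19.0 and 13.8 CPM on food. Its log2 fold change was -1.58 (SE 0.14, adjusted p = 1.8e-05). The highest starved sample was below the lowest fed sample, and the gene lies beside Cyp316a1 on 3L, in a cluster between 7491864 and 7496179. Cyp4d20 had 13.7, 13.6, 11.1 and 9.50 CPM under starvation, against 31.6, 33.8, 33.1 and 29.2 CPM on food. Cyp4d20 changed by -1.41 on the log2 scale (SE 0.12, adjusted p = 1.2e-05). Replicates of this gene were close to each other, and the gene lies on 3L from 2476259 to 2478448, inside Svil, whose log2 fold change was -0.04 (adjusted p = 0.84).

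The 3 genes of the Cyp4ac subfamily, neighbours on 2L between 5264001 and 5270329, went in opposite directions. Cyp4ac3 had 41.2, 49.6, 63.5 and 41.8 CPM under starvation, against 8.56, 9.39, 9.93 and 8.85 CPM on food. This gave a log2 fold change of 2.42 ± 0.14 (SE), with an adjusted p of 1.2e-06. It was 5.34-fold higher in starved heads and the only member of the family to rise at least 2-fold. Cyp4ac1 had 7.89, 11.1, 11.1 and 5.40 CPM under starvation, against 36.8, 34.2, 36.5 and 27.5 CPM on food. For Cyp4ac1 the log2 fold change was -1.93 with an SE of 0.20 (adjusted p = 5.4e-05). No starved sample of Cyp4ac1 came near its fed samples, and the same was so for Cyp4ac2. Cyp4ac2 had 3.65, 2.99, 3.21 and 1.80 CPM under starvation, against 11.7, 12.7, 15.5 and 9.31 CPM on food. The fitted change of Cyp4ac2 was -2.08 in log2 units (SE 0.21, adjusted p = 4.5e-05). The most abundant gene of the cluster was thus Cyp4ac3 in every starved sample and Cyp4ac1 in every fed sample.

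The ratio of Cyp4ac3 to Cyp4ac1 was 5.22, 4.49, 5.73 and 7.75 under starvation, against 0.233, 0.275, 0.272 and 0.322 on food. Between Cyp4ac2 and Cyp4ac1 the ratio was 0.462, 0.270, 0.290 and 0.333 under starvation, against 0.318, 0.370, 0.423 and 0.339 on food, with overlapping conditions. The summed level of the subfamily was 60.8 ± 12.9 CPM under starvation and 55.2 ± 6.86 CPM on food, within the spread of the samples. These ratios were chosen after the values were seen and are given without a test. All of the cluster lies inside the span of tkv, a receptor gene of the BMP pathway, which had a log2 fold change of 0.12 (adjusted p = 0.22).

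**Figure D3:**
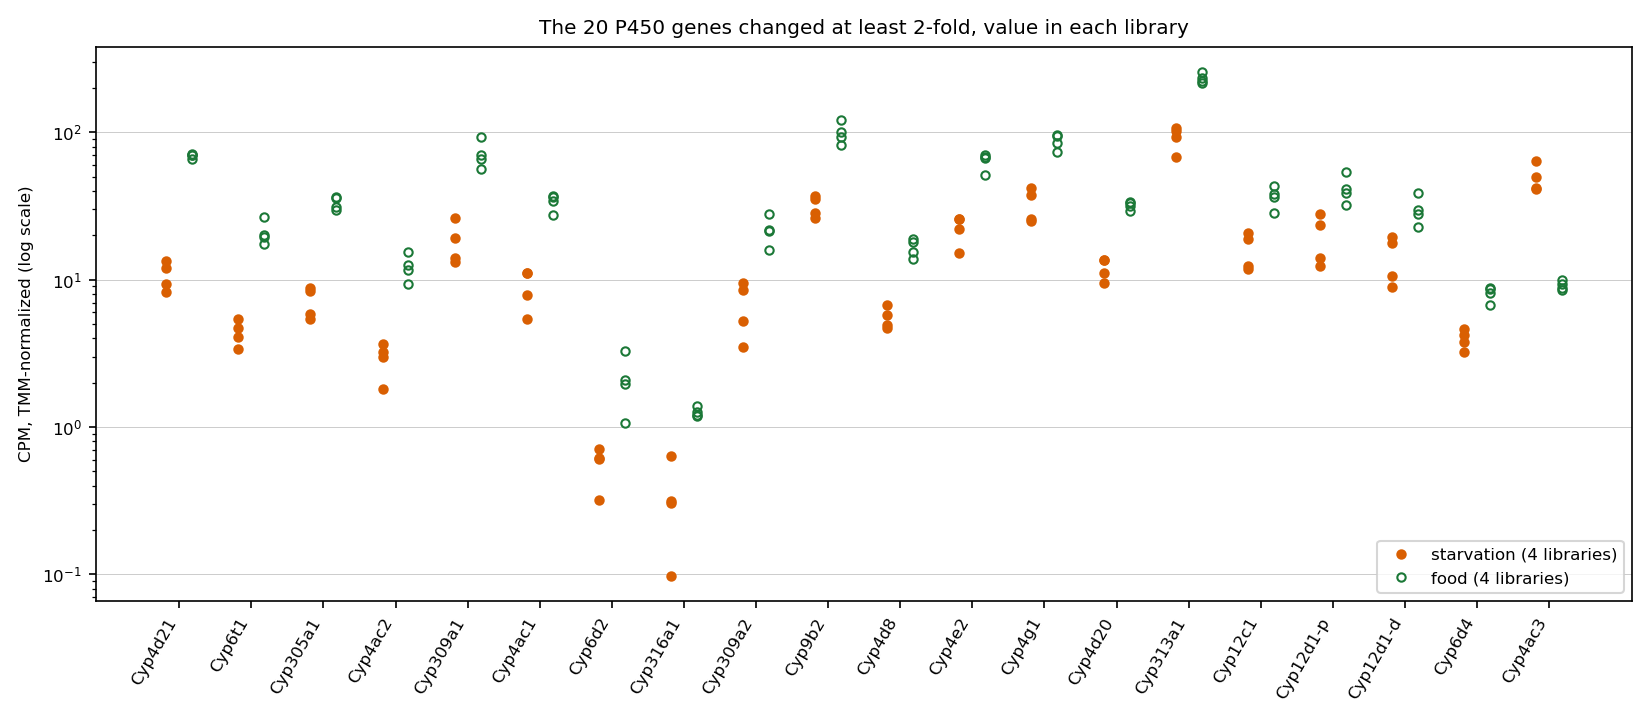
TMM-normalized CPM (vertical axis, log scale) of the 20 members changed at least 2-fold, in the 4 starvation libraries (filled points, left) and the 4 food libraries (open points, right). In 19 genes all starved samples lie below all fed samples, and in Cyp4ac3 the starved samples (41.2 to 63.5 CPM) lie above the fed ones (8.56 to 9.93 CPM).

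Of the other Cyp4 genes, Cyp4d1 (log2 fold change -0.80), Cyp4p3 (-0.73), Cyp4e1 (-0.45) and Cyp4s3 (-0.35) also fell. Cyp4p1 rose by 0.33, and it lies between Cyp4p2 (-0.38, adjusted p = 0.18) and Cyp4p3 inside the gene hig on 2R. Cyp4e3, which has been linked to permethrin tolerance, had a log2 fold change of -0.15 (95% interval -0.51 to 0.22) and did not pass the test.

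In the Cyp6 family, decreases of at least 2-fold were found in 3 genes. Cyp6t1 had 4.09, 4.67, 5.44 and 3.40 CPM under starvation, against 19.4, 20.1, 26.5 and 17.4 CPM on food. Its log2 fold change was -2.24 (SE 0.17, adjusted p = 5.4e-06). The fed samples all lay well above the highest starved one. Cyp6t1 lies on X from 21517434 to 21519218. Cyp6d2 had 0.321, 0.613, 0.705 and 0.606 CPM under starvation, against 2.08, 1.97, 3.30 and 1.07 CPM on food. Cyp6d2 changed by -1.90 on the log2 scale (SE 0.35, adjusted p = 0.0022). This gene had a low level, and its fed samples were spread more widely than its starved ones. Cyp6d2 lies on 2R from 22652573 to 22654530, where it shares 1023 bases with nsr, and nsr had a log2 fold change of -1.89 (adjusted p = 0.0021). Whether the counting used strand is not given in the sources used here, so reads of the pair may not be told apart. Cyp6d4 had 4.67, 4.23, 3.21 and 3.79 CPM under starvation, against 8.15, 8.82, 8.64 and 6.79 CPM on food. This gave a log2 fold change of -1.03 ± 0.14 (SE), with an adjusted p of 0.00027, close to the 2-fold threshold. The gene lies on 3R, and its starved samples all lay below the fed ones. The change was under 2-fold, though still called, without food replicate 2, food replicate 3 or starvation replicate 3.

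Smaller decreases among the Cyp6 genes were found in Cyp6w1 (log2 fold change -0.96), Cyp6a21 (-0.74), Cyp6a8 (-0.64), Cyp6a2 (-0.56), Cyp6v1 (-0.51) and Cyp6d5 (-0.39). Cyp6a2 and Cyp6a8 are inducible genes with raised expression in insecticide-resistant strains. Cyp6a2 averaged 118 ± 17.2 CPM under starvation and 173 ± 16.5 CPM on food. Cyp6d5 averaged 170 ± 12.9 CPM under starvation and 222 ± 21.8 CPM on food. Cyp6a2 lies inside Epac and Cyp6d5 inside rdx, whose log2 fold changes were 0.08 (adjusted p = 0.73) and -0.14 (adjusted p = 0.29).

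All 5 increases in Cyp6 were in genes of the Cyp6a cluster on 2R between 14871366 and 14903095, which holds 9 members. Cyp6a17 had 151, 174, 201 and 148 CPM under starvation, against 91.1, 102, 104 and 89.8 CPM on food. For Cyp6a17 the log2 fold change was 0.80 with an SE of 0.11 (adjusted p = 0.00033). This gene acts in temperature preference, and its starved samples all exceeded its fed samples. Also higher were Cyp6a19 (log2 fold change 0.56), Cyp6a20 (0.37), a gene known from aggression between males, Cyp6a9 (0.33) and Cyp6a23 (0.28). Cyp6a21 and Cyp6a8 in the same cluster fell, and Cyp6a22 (-0.01) and Cyp317a1 (0.02) did not pass the test. The ratio of Cyp6a17 to Cyp6a21 lay between 9.70 and 12.7 under starvation and between 3.57 and 3.84 on food. This pair, the largest rise and the largest fall of the cluster, was chosen after the values were seen. Its separation is built in, and it is given without a test. Reads of close paralogues such as Cyp6a17 and Cyp6a23 may have been divided between them, and Cyp6a9 and Cyp6a19 share 397 bases.

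Cyp6g1, whose overexpression gives resistance to DDT and neonicotinoids, had 96.5, 144, 154 and 78.7 CPM under starvation, against 102, 91.6, 144 and 85.3 CPM on food. The samples of both conditions overlapped, and the log2 fold change was 0.16 with a 95% interval of -0.33 to 0.65. Its neighbours Cyp6g2 (0.21, adjusted p = 0.20) and Cyp6t3 (0.22, adjusted p = 0.28), a gene reported in ecdysone synthesis, did not pass the test either. The pseudogene rows Cyp6a15Psi-RA, Cyp6a15Psi-RB and Cyp6t2Psi-RB were at about 1 CPM and had log2 fold changes between -0.12 and 0.13, none past the threshold.

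**Figure D4:**
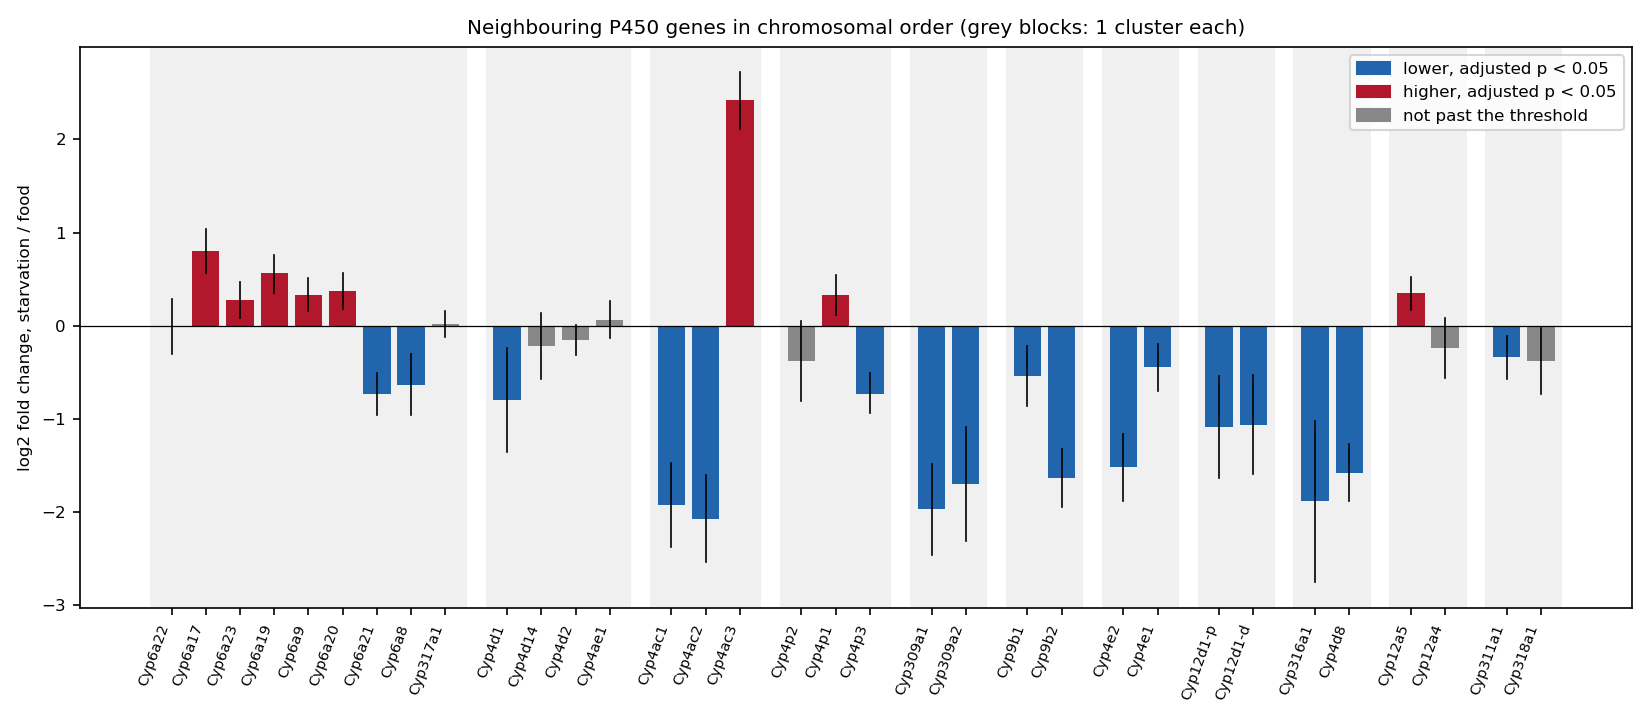
Log2 fold change (vertical axis, starvation over food) with 95% confidence intervals for neighbouring members in chromosomal order, each grey block being 1 cluster with at least 2 tested members and at least 1 that changed. The Cyp4ac and Cyp6a blocks hold bars on both sides of 0, from -2.08 to 2.42 and from -0.74 to 0.80.

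Position along the chromosome gave 17 clusters, in which neighbouring members were at most 20000 bases apart, with 50 members in them and 36 members standing alone. In 8 clusters at least 2 members changed. These went in 1 direction in 5 clusters, all of them lower, and in both directions in 3, which were the Cyp4ac, Cyp4p and Cyp6a clusters. The clusters with decreases only were Cyp309a1 and Cyp309a2 on 2L, Cyp9b1 and Cyp9b2, Cyp4e1 and Cyp4e2, and the Cyp12d1 pair on 2R, and Cyp316a1 and Cyp4d8 on 3L. Of all changed members 80.0% were lower (36 lower and 9 higher), so decreases shared by neighbours are not read as a result of position. Reads of the Cyp12d1 pair may also have been divided between its genes. Shared direction within clusters was counted and was not tested.

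Cyp12 enzymes belong to the mitochondrial clan. Cyp12d1-p and Cyp12d1-d are a nearly identical duplicated pair on 2R that is induced by phenobarbital and caffeine, so reads may have been divided between them in an arbitrary way. Cyp12d1-p had 14.1, 23.4, 28.1 and 12.4 CPM under starvation, against 41.2, 38.7, 54.0 and 32.2 CPM on food. The fitted change of Cyp12d1-p was -1.09 in log2 units (SE 0.25, adjusted p = 0.0078). The copy beside it, Cyp12d1-d, went the same way. Cyp12d1-d had 10.6, 17.7, 19.5 and 8.95 CPM under starvation, against 29.8, 28.0, 38.5 and 22.7 CPM on food. Its log2 fold change was -1.07 (SE 0.24, adjusted p = 0.0078). Starvation replicates 1 and 4 were low in both genes, and food replicate 3 was high in both. Their sum averaged 33.7 ± 12.7 CPM under starvation and 71.3 ± 15.7 CPM on food, without overlap, and the ratio between them lay between 1.32 and 1.44 in starved samples and between 1.38 and 1.42 in fed ones. Both still fell, but by less than 2-fold, when starvation replicate 1, starvation replicate 4 or food replicate 3 was left out.

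Cyp12c1 was the Cyp12 gene with the largest decrease. Cyp12c1 had 12.4, 18.8, 20.9 and 11.9 CPM under starvation, against 38.4, 36.4, 43.6 and 28.4 CPM on food. Cyp12c1 changed by -1.20 on the log2 scale (SE 0.19, adjusted p = 0.00091). Its samples did not overlap, and the gene lies on 3L from 18684259 to 18686319. Cyp12e1 (-0.50) and Cyp12b2 (-0.46) also fell, while Cyp12a5 rose (0.35). Cyp12a4, its neighbour on 3R and a gene of lufenuron resistance when overexpressed, had a log2 fold change of -0.24 (95% interval -0.56 to 0.08).

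In the remaining families, 6 members fell at least 2-fold. Cyp305a1 had 8.83, 8.33, 5.83 and 5.44 CPM under starvation, against 35.9, 36.5, 31.4 and 29.7 CPM on food. This gave a log2 fold change of -2.23 ± 0.16 (SE), with an adjusted p of 4.4e-06. This was the only one of 4 tested CYP2 clan members that passed the test, and the gene lies on 3L from 19810403 to 19813339. Cyp313a1 had 107, 103, 93.7 and 67.6 CPM under starvation, against 234, 257, 216 and 223 CPM on food. For Cyp313a1 the log2 fold change was -1.33 with an SE of 0.14 (adjusted p = 4.5e-05). Starvation replicate 4 was the lowest sample. Cyp313a1 lies on 3R from 14521049 to 14523064, inside Pde6, whose log2 fold change was -0.12 (adjusted p = 0.61). Cyp9b2 had 28.5, 35.3, 37.2 and 26.4 CPM under starvation, against 93.5, 100.4, 121 and 82.2 CPM on food. The fitted change of Cyp9b2 was -1.64 in log2 units (SE 0.14, adjusted p = 1.5e-05). In Cyp9b2 the conditions were far apart relative to the spread within each, and the gene lies on 2R from 7130277 to 7132139.

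Cyp309a1 had 14.0, 19.2, 26.1 and 13.3 CPM under starvation, against 70.2, 66.2, 92.7 and 56.0 CPM on food. Its log2 fold change was -1.97 (SE 0.22, adjusted p = 7.9e-05). Its neighbour followed the same order of samples. Cyp309a2 had 5.21, 8.50, 9.48 and 3.48 CPM under starvation, against 21.9, 21.3, 27.8 and 15.8 CPM on food. Cyp309a2 changed by -1.70 on the log2 scale (SE 0.28, adjusted p = 0.0011). The cluster lies on 2L between 2562483 and 2573037, and in both genes starvation replicate 3 and food replicate 3 were the highest samples of their condition. Cyp316a1 had 0.641, 0.306, 0.313 and 0.0978 CPM under starvation, against 1.21, 1.26, 1.39 and 1.19 CPM on food. This gave a log2 fold change of -1.89 ± 0.39 (SE), with an adjusted p of 0.0045. This rests on few reads, between 5 and 32 counts in starved libraries and between 56 and 71 in fed ones.

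Smaller decreases in these families were found in Cyp28c1 and Cyp9c1 (log2 fold change -0.69 each), Cyp9b1 (-0.54) and Cyp311a1 (-0.34). The whole span of Cyp9c1 lies inside an antisense RNA gene, asRNA:CR43787, and both rows had equal counts in 6 of 8 libraries and differed by 1 count in the others. Both rows thus held the same reads, and the decrease cannot be assigned to Cyp9c1 alone. Cyp313b1 rose by 0.55 and was the only one of the 27 to rise. Cyp18a1, which inactivates ecdysteroids, had 8.63, 9.98, 8.61 and 4.79 CPM under starvation, against 6.59, 5.83, 5.70 and 6.24 CPM on food. Starvation replicate 4 lay below the fed samples and the other starved samples above them. Its log2 fold change was 0.39 (95% interval -0.02 to 0.81, adjusted p = 0.16), and without that sample it was 0.58 (adjusted p = 0.0035).

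Cyp301a1, a gene of cuticle formation, had a log2 fold change of -0.56 (95% interval -1.24 to 0.12), and Cyp303a1, which is needed for sensory bristles, one of -0.08 (95% interval -0.32 to 0.15). Neither passed the test. Cyp9f2 (0.02, 95% interval -0.19 to 0.24) and Cyp28a5 (0.30, 95% interval -0.06 to 0.66) were abundant and did not pass it. Of the 34 tested members that did not pass, 32 had a 95% interval of the log2 fold change within 2-fold in either direction. Cyp304a1 had the widest interval, 0.22 to 2.88 around 1.55 (adjusted p = 0.085), from 5 to 28 counts per starved library and 3 to 12 per fed one, and it lies inside grsm, whose log2 fold change was -0.90 (adjusted p = 0.00012).

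Several of the smaller changes kept their direction and about their size but lost the call when a single library was left out. Cyp311a1 was no longer called without food replicate 1, 2 or 3 or starvation replicate 1, 2 or 4 (log2 fold changes of -0.34 to -0.26, adjusted p of 0.081 to 0.12). Cyp4s3 lost its call without food replicate 1 or 3 or starvation replicate 1, 2 or 4 (-0.36 to -0.29, adjusted p of 0.058 to 0.10). Cyp4d1 kept its call only without starvation replicate 2, and had log2 fold changes of -0.88 to -0.62 without each of the others (adjusted p of 0.051 to 0.13). Cyp4g15 was not called without food replicate 1 or 2 or starvation replicate 1 or 4 (-0.29 to -0.26, adjusted p of 0.060 to 0.093), nor was Cyp9b1 without food replicate 1, 2 or 3 or starvation replicate 1 (-0.54 to -0.48, adjusted p of 0.052 to 0.080). Among the increases, Cyp6a23 lost its call without food replicate 1, 2 or 4 or starvation replicate 2 (0.22 to 0.28, adjusted p of 0.093 to 0.12). The same held for Cyp4p1 without food replicate 1, 2 or 3 or starvation replicate 2 (0.29 to 0.32, adjusted p of 0.066 to 0.091).

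A list of genes taken as electron transfer partners of P450s was also examined. Of 6 listed genes in the data, 4 fell and 1 rose, with a median of -0.55, beside 16.6% of all genes lower and 9.97% higher. Cpr, the NADPH-cytochrome P450 reductase, averaged 104 ± 6.62 CPM under starvation and 179 ± 6.08 CPM on food (log2 fold change -0.79, adjusted p = 3.3e-05). Cyt-b5 (-0.67) fell, and so did the ferredoxin Fdx2 (-0.43). Cyt-b5-r (-1.30) fell too and is counted in the list, but it is a cytochrome b5-related gene and not an established P450 partner. The ferredoxin Fdx1 rose by 0.48, and the ferredoxin reductase dare had a log2 fold change of -0.07 (adjusted p = 0.54).

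Genes of ecdysteroid synthesis include P450s that kept a mutant name (dib, sad, shd, phm, spo and spok) and the upstream enzymes nvd and sro. Of the 7 tested, 2 rose and the other 5 did not pass the test, beside 9.97% of all genes higher. This count is too small to be read against that share. shd, the mitochondrial hydroxylase that makes the active hormone, averaged 1.41 ± 0.234 CPM under starvation and 0.498 ± 0.133 CPM on food (log2 fold change 1.49, adjusted p = 0.0010). dib rose by 0.41 (adjusted p = 0.033).

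Of 14 transcription regulators of xenobiotic and hormone responses, 4 fell and 2 rose, with a median of 0.05, beside 16.6% of all genes lower and 9.97% higher. These are small counts close to the background, and the changed genes are named as a description. The oxidative and xenobiotic stress regulator cnc (log2 fold change -0.45) and its inhibitor Keap1 (-0.40) both fell, whereas maf-S, the partner of cnc, rose by 0.71. The nuclear receptors Hnf4 (-0.39) and svp (-0.60) fell and Hr38 rose by 0.95. The xenobiotic receptor Hr96 had a log2 fold change of 0.15 (adjusted p = 0.13).

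Of 13 enzymes of juvenile hormone and hydrocarbon metabolism, 7 fell and the other 6 did not pass the test, with a median of -0.81. Among all genes, 16.6% were lower. The epoxide hydrolases Jheh1 (log2 fold change -0.98), Jheh2 (-0.78) and Jheh3 (-0.84) and the juvenile hormone esterase gene Jhe (-2.24) fell. Among the enzymes upstream of Cyp4g1, the fatty acid synthases FASN2 (-1.52) and FASN3 (-1.04) fell, from 5.45 and 5.81 CPM on food. The desaturase Desat1 (-0.27, adjusted p = 0.28), spidey (0.04, adjusted p = 0.76) and FarO (-0.19, adjusted p = 0.28) did not pass the test. Desat2 (-2.40, adjusted p = 0.088), which was high in food replicate 2 alone, did not pass it either. Cpr is counted in this list too.

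Many members had their lowest or highest value in the same library of a condition. Starvation replicate 4 was the lowest starved sample for 50 of 79 members (63.3%), where it was the lowest for 26.4% of all genes. Food replicate 4 was the lowest fed sample for 51 members (64.6%, against 31.1% of all genes). Starvation replicate 3 and food replicate 3 were each the highest of their condition for 38 members (48.1%, against 39.2% and 30.6% of all genes). Without starvation replicate 4, 32 members fell and 11 rose, and without food replicate 4, 35 fell and 8 rose.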

How the data were processed

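RNA was measured in 8 head samples, 4 per condition. Paired-end reads were mapped by the authors with STAR (version 2.6.1b in the submitters' processing notes), reads of a sample from separate flow cells were merged, and ASpli gave the raw counts per gene that were deposited. The deposited counts were not normalized. They came with gene coordinates on release 6 of the Drosophila genome and exonic lengths. The label of each column named its condition and replicate. A row that had lost its gene name (0.00418% to 0.00541% of a library's counts) was left out.

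From these counts, TMM-normalized CPM, log2 fold changes, standard errors, 95% intervals and adjusted p-values were computed with the quasi-likelihood test of edgeR 4.0.16 in R 4.3.3, on all 12130 genes with at least 10 counts in at least 4 libraries, and only the P450 rows are shown. The fit was checked on simulated data. Depth was 47936038 to 53168449 counts per library and the common biological coefficient of variation was 0.138. Permutation tests used SciPy 1.17.1. Levels between genes were compared as CPM per kb of exon. The fit had no replicate block.

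Members that changed at least 2-fold are shown in every library; other changed members, the 10 highest per kb, members with a textbook role and changed genes of the side lists are named. The family, the lists and the clusters were chosen with earlier results of these data known. Alternatives were RLE and upper-quartile normalization, no filter, filterByExpr, DESeq2 1.42.0, limma-voom (limma 3.58.1), a replicate block, omission of each library in turn or of the 10 top genes by abundance, and testing against a null of 2-fold. Sequences, splicing and protein levels were not analysed here.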

Additional observations from a re-analysis of the deposited data

Results flagged for a closer look

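One sample of 1 member stood apart from its group. Cyp4e2 in food replicate 4 was at 51.4 CPM, whereas the other fed samples lay between 67.6 and 69.9 CPM, a gap of 0.875 of the range of the 4 values. The sets of 4 values examined in this way numbered 40, those of the 20 members changed at least 2-fold in each condition, and chance would mark about 2 of them. These sets share libraries and are not independent. Food replicate 4 was the lowest fed sample for 51 of the 79 tested members (64.6%, against 31.1% of all genes), so its low value is not particular to Cyp4e2.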

How the results depend on the processing

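Of the 45 members that changed, 36 kept their direction and their call under all 16 alternatives, 9 lost the call under at least 1, and 0 reversed. Cyp4e1 and Cyp6d5 lost it under upper-quartile normalization alone (adjusted p = 0.056 and 0.059). That scaling shifted the median of all genes by 0.12 to 0.11, and under it the median log2 fold change was -0.13 over all members, -0.26 in Cyp4 and 0.05 in Cyp6, with 29 members lower and 9 higher, and Cyp12d1-d, Cyp12d1-p and Cyp6d4 changed by less than 2-fold. Cyp303a1, not called in either, went to 0.04 (adjusted p = 0.85). The replicate block gave 46 changed members, 10 higher and 36 lower, with 2 higher at least 2-fold (Cyp304a1 beside Cyp4ac3), and changed no other call at 2-fold among the members. The labels give samples of different conditions only a number in common, and do not say whether same-numbered samples were handled together. Over all genes tested, deviations from the condition means correlated between same-numbered samples by 0.0106, 0.057, 0.12 and 0.137. Starvation replicates 2, 3 and 4 each correlated best with their own number, and starvation replicate 1 with food replicate 4 (0.0799). Among the members, replicate 4 was the lowest sample for 63.3% under starvation and for 64.6% on food. A link between same-numbered samples was not tested. Against a 2-fold null, 10 members were lower and 1 was higher.

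When single libraries were left out, 31 to 37 members were lower and 7 to 11 higher, 16 to 21 lower at least 2-fold and 1 to 2 higher at least 2-fold (the second being Cyp304a1, without food replicate 2 or starvation replicate 4). The Cyp6 median ranged from -0.17 to 0.05, on both sides of 0. Cyp9f2, never called, ranged from -0.02 to 0.08. Cyp6t3 was called without starvation replicate 3 only (adjusted p = 0.0085). Genes called overall numbered 2402 to 4571, the most without starvation replicate 3. Depth limits the 7 untested members and Cyp304a1. Standard errors cover the spread between pools of 30 flies of 1 strain at 1 time point.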
